A study of Drosophila melanogaster with 2 samples.

Results

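Of the 2767 places where tagged Usf was called as bound in fly embryos, 284 (10.3%) lay in intergenic sequence away from any start of transcription. A peak was taken when its summit was more than 1 kb from every annotated transcription start site (TSS) of any gene and inside no annotated gene. Of the remaining peaks, 1782 had a summit within 1 kb of a TSS and 701 lay farther from any TSS but inside a gene. The data are ChIP-seq peak lists from whole Drosophila melanogaster embryos aged 0 to 16 h, both sexes pooled, of a transgenic line that stably carries Usf with green fluorescent protein (GFP) at its C terminus. There was 1 group of 2 biological replicates, numbered 3 and 4, of whose collection the labels say no more. Chromatin was sheared by sonication to 200 to 800 bp and the fusion was pulled down through its GFP. No untagged or input library was analysed here. Embryos of all these ages and cell types were mixed, so bound cells cannot be told apart from unbound ones. The 2767 peaks are those that passed the irreproducible discovery rate (IDR), a filter on how well peak ranks recur between replicates, and they are compared below with the longer, relaxed lists that fed it.

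Usf belongs to the upstream stimulatory factors, a family of basic helix-loop-helix leucine zipper proteins that in vertebrates bind the E-box CACGTG, often close to promoters. Sequence between genes in Drosophila holds enhancers, insulators and Polycomb response elements, and large intergenic stretches are typical of developmental regulators that are switched on in patterns. Nothing in a peak list says which of these a bound stretch is, or which gene it acts on, so genes are named here only as neighbours.

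The sequences below, from the Release 6 genome on the plus strand, are the 101 bp centred on the summits of 6 of the strongest peaks, shown for their base composition. The GC content of these windows ran from 24.8% beside Rh5 to 43.6% between slp1 and slp2. Capitals mark runs of at least 8 bases made only of A and T, which the windows beside RabGGTa and Rh5 lack, and in the peak between the forkhead genes slp1 and slp2 they also mark GTCACAC, the core of the site of the promoter factor M1BP.
RFeSP to chinmo, chr2L:1638737-1638837: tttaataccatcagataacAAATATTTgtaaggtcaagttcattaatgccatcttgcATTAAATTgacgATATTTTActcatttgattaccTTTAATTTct
RFeSP to chinmo, chr2L:1643437-1643537: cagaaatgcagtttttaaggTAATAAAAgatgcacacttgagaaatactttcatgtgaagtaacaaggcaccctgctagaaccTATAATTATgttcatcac
CG43131 to RabGGTa, chr3R:5113231-5113331: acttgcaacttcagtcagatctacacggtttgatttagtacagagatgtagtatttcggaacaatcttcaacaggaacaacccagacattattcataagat
slp1 to slp2, chr2L:3832468-3832568: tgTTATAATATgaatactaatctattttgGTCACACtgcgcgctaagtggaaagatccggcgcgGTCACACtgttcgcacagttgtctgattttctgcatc
Hacd1 to Rh5, chr2L:12006741-12006841: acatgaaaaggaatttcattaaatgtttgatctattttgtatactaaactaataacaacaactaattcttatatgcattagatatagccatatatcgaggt
COX7AL2 to CG31668, chr2L:2202369-2202469: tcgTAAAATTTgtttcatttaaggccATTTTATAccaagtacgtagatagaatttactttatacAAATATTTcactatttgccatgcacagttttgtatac

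The next set shows the E-box in its place. CACGTG, in capitals, was found in 4 of the 284 peaks no more than 100 bp from the summit, and 3 of them are given as 41 bp around the hexamer. Each is on the plus strand of the same genome.
RpLP0 to Sfp79B, chr3L:22078281-22078321: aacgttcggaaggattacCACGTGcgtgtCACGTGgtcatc
tsh to CG11629, chr2L:21846547-21846587: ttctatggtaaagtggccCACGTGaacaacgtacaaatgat
hry to SrpRbeta, chr3L:8696681-8696721: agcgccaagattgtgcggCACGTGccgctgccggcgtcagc
The last lines give a hexamer that was commoner at these summits than the E-box, CAGTGC, written here as its reverse complement GCACTG in capitals so that all copies read the same way. They are 31 bp from peaks beside developmental and other genes, chosen after the values were seen.
E(spl)mbeta-HLH to E(spl)malpha-BFM, chr3R:26009091-26009121, minus strand: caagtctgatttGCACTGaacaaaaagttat
sens-2 to Rca1, chr2L:6841605-6841635, minus strand: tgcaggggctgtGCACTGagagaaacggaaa
CG44362 to CG7560, chr3L:11416901-11416931, plus strand: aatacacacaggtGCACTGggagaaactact
dnc to Myc, chrX:3360508-3360538, minus strand: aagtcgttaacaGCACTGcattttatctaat
RFeSP to chinmo, chr2L:1649696-1649726, plus strand: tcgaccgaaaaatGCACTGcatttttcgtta

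Nearly all intergenic peaks could be traced in both replicates, a recurrence that the IDR filter itself asks for. A relaxed peak with its summit within 100 bp was found in both replicates for 274 of 284 (96.5%, 95% Wilson interval 93.6 to 98.1), where 94.5% of all IDR peaks had one. The difference from all other IDR peaks was 2.20 percentage points, with an interval from -0.76 to 4.07 that includes 0. Another 7 were matched in replicate 3 only and 3 in replicate 4 only. All 10 were 396 bp wide, the width that 202 of the 284 share, with signals from 81.1 to 166.3. The strongest of them lay beside chinmo at chr2L:1634147-1634542, with a pooled signal of 166.3, no match in replicate 3 and 75.5 in replicate 4. The next lay beside scyl at chr3L:11260235-11260630 and chr3L:11261480-11261875, with 81.4 in replicate 3 only and 76.0 in replicate 4 only. Each replicate thus had a matched summit at one of these neighbouring places and not at the other. Every member was matched in both replicates when summits within 250 bp were accepted.

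Signal, a height the authors' caller gave each peak on a scale not given in the sources used here, ran from 71.5 to 737.4 over the intergenic peaks, with a median of 111.1 (95% interval of the median 100 to 118.7). The median was 105.2 for distal peaks inside genes (102.1 to 110.1) and 127.9 for peaks near a TSS (123.7 to 132.8). Intergenic peaks were scarce among the strongest binding sites. They made up 4 of the first 100 IDR peaks by signal (4%, 1.57 to 9.84), 24 of the next 400 (6%), 45 of the ranks from 501 to 1000 (9%), 113 of those from 1001 to 2000 (11.3%) and 98 of the last 767 (12.8%, 10.6 to 15.3). The other classes were not split by rank here, so this scarcity need not be particular to intergenic peaks. Of the relaxed peaks called on the pooled reads, 3942 fitted the same rule on position. The IDR list held 284 of these (7.20%, 6.44 to 8.05). The IDR list took 13.0% of all pooled peaks, 7.68% of distal peaks inside genes and 21.6% of peaks near a TSS. The order of signals in replicate 3 was like that in replicate 4, with a Spearman rho of 0.69 over the 274 matched peaks, which share their control alignment. It was 0.65 for distal peaks inside genes and 0.79 for peaks near a TSS. Both replicates placed 187 of the 284 (65.8%) among their own first 2767 peaks, as they did 72.1% of all IDR peaks, 67.6% of distal peaks inside genes and 74.9% of those near a TSS.

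**Figure D1:**
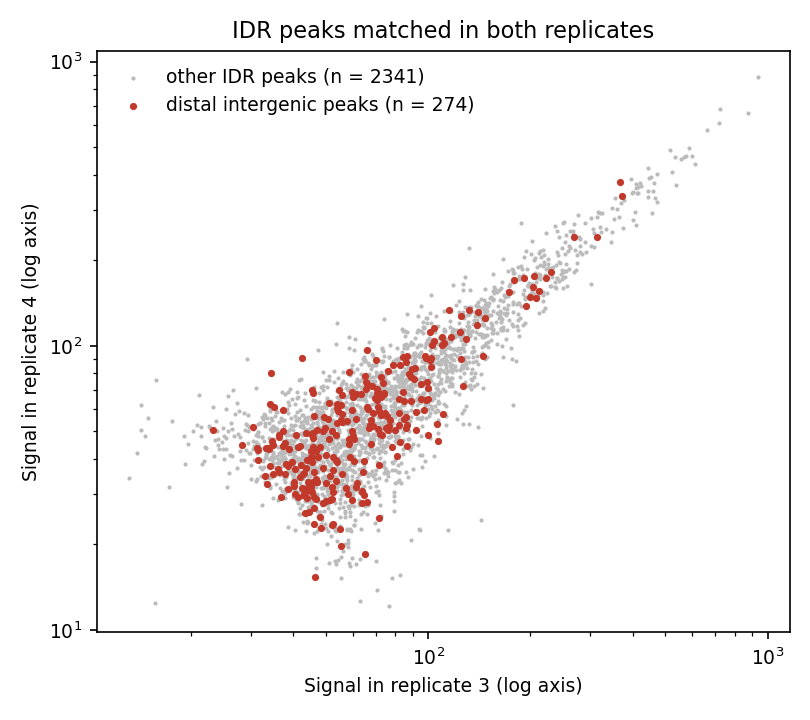
Signal of each IDR peak in the relaxed list of replicate 3 (x) and of replicate 4 (y), both log axes, for the 274 intergenic peaks (red) and the 2341 other IDR peaks (grey) matched in both. The red points follow the grey cloud and thin out toward its upper end, where the highest pair are at 368.3 and 376.0 and at 372.6 and 336.2.

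The strongest intergenic peak lay between RFeSP, which encodes the Rieske iron-sulfur subunit of respiratory complex III, and chinmo, a BTB zinc finger factor that sets early temporal identity of neurons. It spanned chr2L:1638549-1639007 and had a pooled signal of 737.4, with 368.3 in the list of replicate 3, where it ranked 44, and 376.0 in that of replicate 4, where it ranked 20. Its summit was 12471 bp upstream of chinmo, and the nearest TSS, 8376 bp away, was that of a long noncoding RNA. The next, at chr2R:13035187-13035498, lay 27441 bp beyond the end of the Polycomb group gene Su(z)2 and 9343 bp from the end of CG13323, with a pooled signal of 710.7 and 372.6 and 336.2 in replicates 3 and 4. The neighbouring Polycomb group gene Psc, a RING finger subunit of the PRC1 complex, had 3 more of the first 6 on its other side, in the stretch between CG13321 and Psc. Their pooled signals were 510.8, 419.6 and 406.0, with 269.5, 230.7 and 222.6 in replicate 3 and 242.1, 181.5 and 172.9 in replicate 4. The weaker pair of these overlap, so they may not be separate sites. Between blw, the alpha subunit of mitochondrial ATP synthase, and CycB, the mitotic cyclin B, a peak of 551.0 (313.3 and 242.1 in the replicates) sat in a gap of 1340 bp between the 3′ ends of both genes.

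Pair-rule and mesoderm genes were also among the neighbours of the first 20. The slp1 and slp2 genes, paired forkhead factors of segmentation, were separated by a peak at chr2L:3832385-3832652 with a pooled signal of 367.5 and 203.5 and 160.5 in replicates 3 and 4. It lay 4322 bp upstream of slp2. Its GC content at the summit was 43.6% against 28.2% in the flanks, the reverse of the usual order, and its 101 bp held GTCACAC 2 times. That word is no common feature of the set, as only 3 intergenic peaks (1.06%) had it in the 201 bp around the summit. It was in 2.78% of all IDR peaks, 1.57% of distal peaks inside genes and 3.54% of peaks near a TSS. Windows over all eligible intergenic sequence had it in 1.32%. A peak 1402 bp upstream of bin, the visceral mesoderm forkhead factor biniou, had a signal of 269.5, with 131.7 in replicate 3 and 133.8 in replicate 4. The Wnt receptor gene fz had a peak 1725 bp upstream with a signal of 275.4 (147.4 and 125.2), and foxo, a target of insulin signalling, had one 3322 bp upstream with 330.0 (194.3 and 138.4).

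The others of the 20 included a peak of 365.2 lying 1362 bp upstream of Rh5, a rhodopsin gene, and one of 355.4 between COX7AL2 and CG31668. A peak of 354.0 lay 3741 bp upstream of tara, and the one between Sol1 and the cytochrome P450 gene Cyp9f2, at 347.3, sat in a gap of only 437 bp between converging genes. The rest of the 20 lay between CG43131 and RabGGTa (375.2), NijA and CG43245 (330.0), CG7320 and CheA75a (276.2), and CheA75a and CG5103 (250.6). They also lay between Rh5 and Wdr81 (259.9) and, again, between RFeSP and chinmo (377.8). In the replicates' own lists the 20 ranked at 460 or better in replicate 3 and at 356 or better in replicate 4. Whether the lists share a scale is not stated, so heights are not compared between them.

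**Figure D2:**
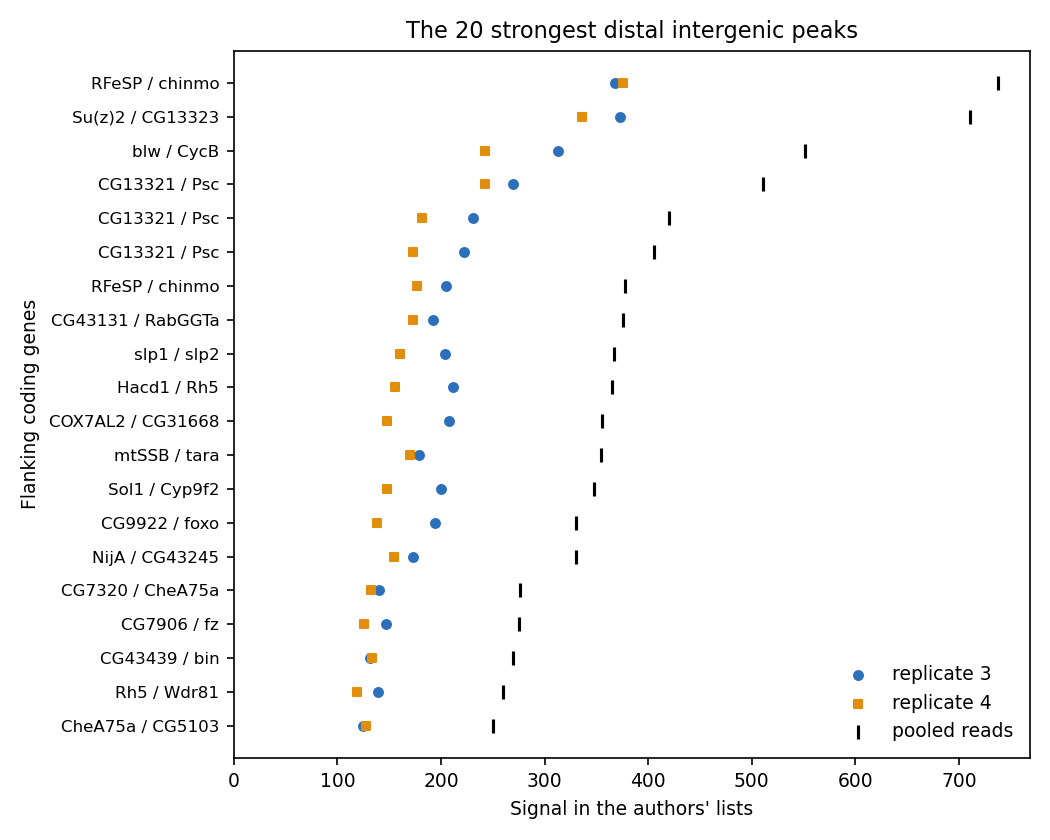
Signal (x) of the 20 strongest intergenic peaks, named by the nearest coding gene on either side (y), in replicate 3 (circles), replicate 4 (squares) and the pooled reads (ticks). The first, beside chinmo, has 368.3 and 376.0 in the replicates, and the peaks from the seventh down lie at 212.0 or less in both.

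Peaks were spread over 212 stretches between genes, called gaps here. A single peak was found in 165 gaps, 2 in 31 gaps and 3 or more in 16, and those 16 held 57 of the 284. Counted by peak, 119 of the 284 shared a gap with at least 1 other. The 5 peaks of the 20910 bp gap upstream of chinmo had pooled signals of 139.1, 243.3, 166.3, 737.4 and 377.8 from left to right. In replicate 3 the 4 that were matched had 66.2, 123.7, 368.3 and 205.2, and in replicate 4 the 5 had 73.1, 111.4, 75.5, 376.0 and 176.5. The gap between NijA, which encodes the cell-surface protein Ninjurin A, and CG43245 was 75047 bp long and held 6 peaks, from 79.0 to 330.0. Another 6, from 73.6 to 241.8, lay within 6948 bp of each other between CG44362 and CG7560. At the signalling genes Wnt4 and wg, both Wnt ligands, 3 peaks of 91.5, 93.4 and 124.0 shared a gap of 29987 bp. The Paics gene, of purine synthesis, had 3 peaks of 171.3, 217.9 and 178.7 within 787 bp on X. Those of 217.9 and 178.7 overlap, so they may not be separate sites.

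**Figure D3:**
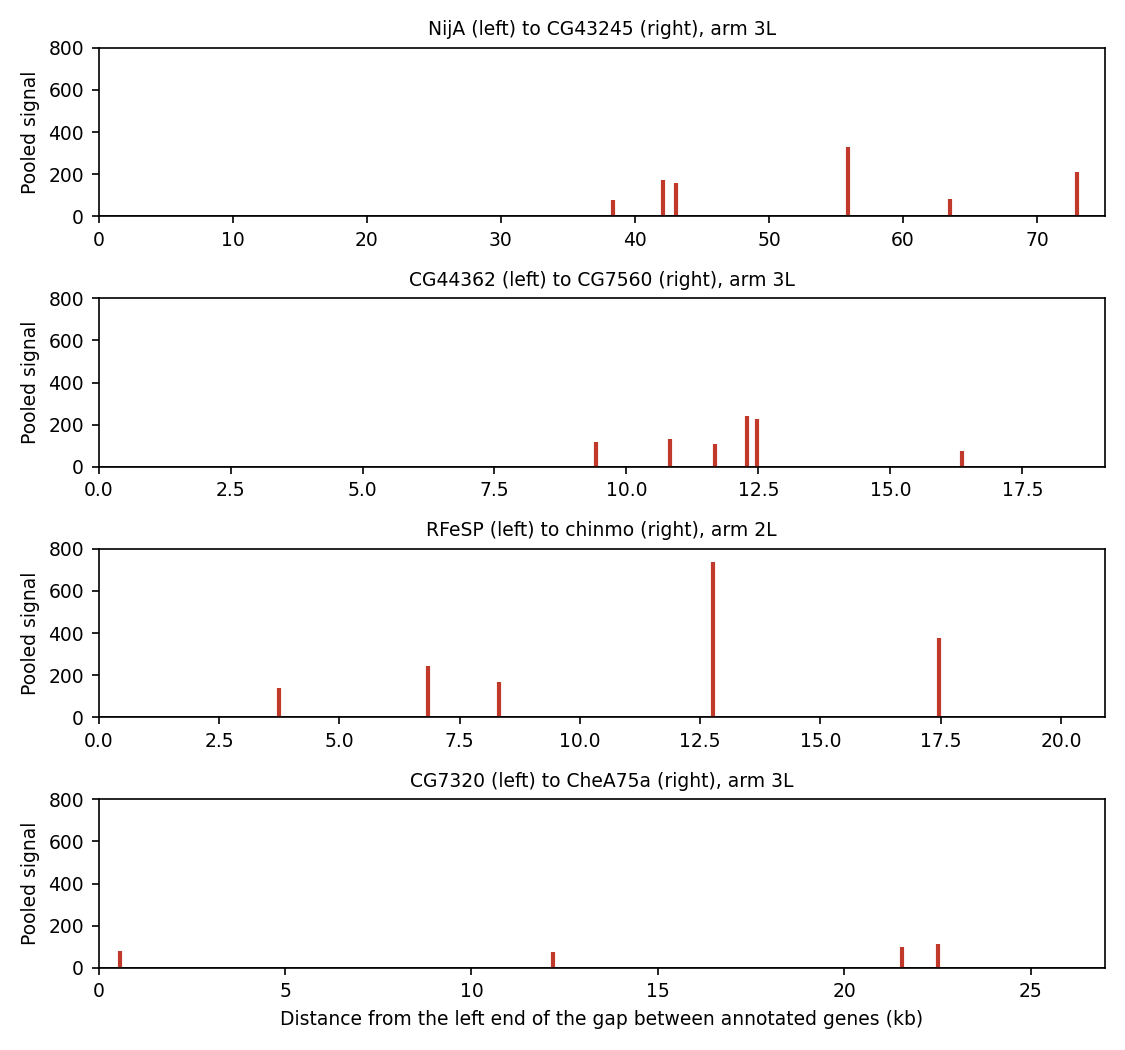
Position (x, kb from the left end of the gap between annotated genes) and pooled signal (y, to 800) of the intergenic peaks in the gaps with 4 or more of them, each titled by the nearest coding genes, which can lie beyond a noncoding gene that bounds the gap. The chinmo gap holds the highest peak at 737.4, and the 6 of the CG44362 gap crowd into 6948 bp.

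Other gaps with at least 3 peaks had signals of up to 355.4. Between CG7320 and CheA75a, 4 peaks of 73.6 to 112.4 lay in one gap and 3 of 126.0 to 276.2 in the next, across a noncoding gene. Single gaps with 3 peaks lay between COX7AL2 and CG31668 (154.2 to 355.4), noc and CG33648 (96.8 to 129.9), CG4218 and CG3473 (86.6 to 163.2) and drl and CG31797 (72.5 to 164.7). The noc gene encodes a zinc finger factor and drl an axon guidance receptor tyrosine kinase. On 3L there were 3 each between CG13896 and hng3 (95.2 to 198.4), scyl and Dyro (118.3 to 131.8), and CG7484 and Crtc (76.0 to 111.7). Beside hng3, the peaks of 95.2 and 198.4 overlap and may not be separate sites. Long gaps held a peak more often, 12.4% of those over 20 kb (9.48 to 16.1) against 3.30% of those from 2 to 5 kb (2.42 to 4.48). Per Mb of sequence that the rule allows, the order was the other way. There were 20.2 peaks per Mb in gaps of 2 to 5 kb (14.8 to 26.9, exact Poisson interval) and 5.07 in gaps over 20 kb (3.99 to 6.34), counting only 100 kb bins with at least 1 relaxed pooled peak. Another IDR summit lay within 500 bp for 14 of the 284 (4.93%), for 5.85% of distal peaks inside genes, 12.9% of peaks near a TSS and 10.3% of all IDR peaks, differences that were not tested.

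The peaks were unevenly divided among the chromosome arms. The left arm of chromosome 3 had 106 of them, 2L had 69, 3R 52, 2R 28, X 27 and chromosome 4 had 2. They were 18.03% of the IDR peaks of 3L (15.1 to 21.3) and 13.1% of those of 2L (10.5 to 16.3), but 7.90% on 3R, 6.03% on 2R and 5.18% on X (3.59 to 7.43). Per Mb of eligible sequence in bins with a relaxed peak, 3L had 13.5 (11.0 to 16.3) and 2R 4.63 (3.08 to 6.69). Peaks near a TSS ranged less over the 5 long arms, from 51.5 per Mb of TSS-near sequence on 2R to 59.7 on X, with 56.0 on 3L, and there were 28.0 per Mb on chromosome 4 from 7 peaks. Some of the arm difference was already there in the relaxed pooled list. Per Mb of all eligible sequence, not only of bins with a relaxed peak, that list had 129.8 peaks of this kind on 3L and 86.0 on 2R. The IDR list had 12.5 and 4.04 on that base. Some of the difference lay in the share that reached the IDR list, 9.65% on 3L (8.04 to 11.5) and 4.69% on 2R (3.26 to 6.70). A 250 kb window of 3L from 11.25 to 11.5 Mb alone held 15 of the 284, out of 24 IDR peaks there. How much of each arm could be mapped was not tested, and peaks that share a gap are not independent, so the intervals are too narrow.

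**Figure D4:**
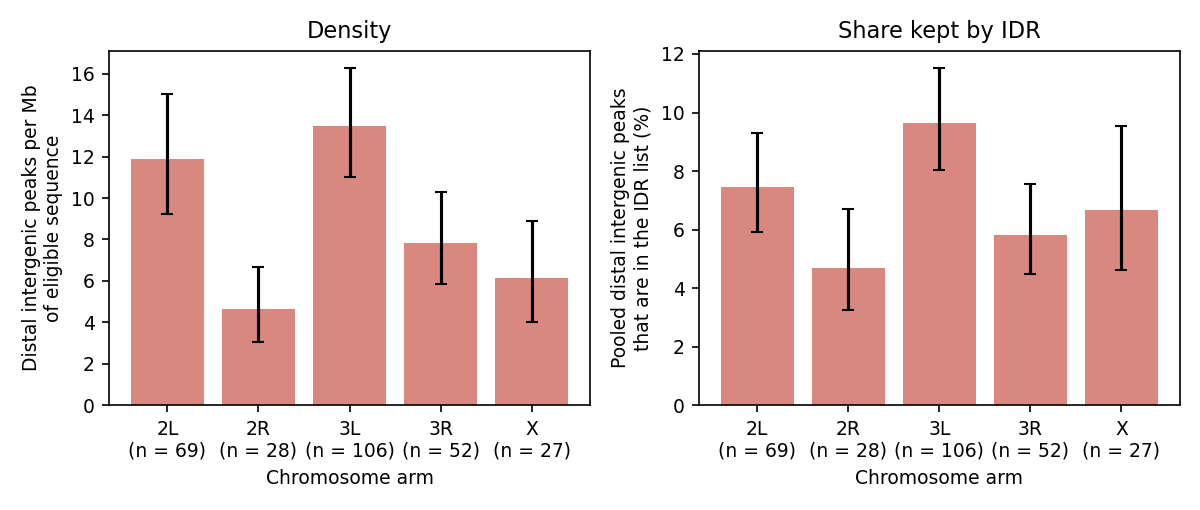
Intergenic peaks per Mb of eligible sequence in bins with a relaxed peak (left, bars with 95% Poisson intervals) and percent of relaxed pooled intergenic peaks that are in the IDR list (right, 95% Wilson intervals), by chromosome arm (x). On 3L the values are 13.5 per Mb and 9.65%, on 2R 4.63 per Mb and 4.69%.

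Distances to the nearest TSS ran from 1011 to 36689 bp with a median of 3606.5. There were 74 peaks at 1 to 2 kb, 117 at 2 to 5 kb, 53 at 5 to 10 kb and 40 beyond 10 kb. The nearest TSS belonged to a coding gene for 178 peaks, to a noncoding RNA gene for 100 and to a tRNA gene for 6. It pointed away from the peak, with the peak upstream, in 162 cases (57.0%, 51.2 to 62.7). The rule leaves out sequence inside genes, which lies downstream of a TSS, so an even split is not the reference. The share of eligible sequence on the upstream side was not computed, and no preference can be read from this value. The coding genes to either side faced away from each other at 77 peaks (27.1%), toward each other at 68 (23.9%) and in the same direction at 139 (48.9%). The eligible sequence of gaps over 2 kb was divided in nearly those shares, with 24.0%, 23.5% and 52.5%.

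The 3 farthest peaks lay in the gap between NijA and CG43245 and downstream of vvl. The farthest, at 36689 bp, and another at 32987 bp lay in that gap, both nearest to the TSS of CG43245, with signals of 79.0 and 170.9. The one between them in distance lay 33859 bp from a TSS of vvl, a POU domain factor of tracheal and neural development, at chr3L:6823819-6824214, with a signal of 124.6 and 76.4 and 52.3 in replicates 3 and 4. At the other end, the 5 peaks just inside the limit lay 1011 to 1056 bp from a TSS with signals of 96.8, 207.4, 128.9, 102.6 and 135.0. The 5 intergenic peaks just outside it, at 925 to 995 bp, had 106.2, 263.8, 266.4, 143.6 and 277.4, among them one beside the Polycomb group gene ph-d.

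Coding genes beside a gap of more than 2 kb numbered 3648, and 345 of them (9.46%) flanked at least 1 intergenic peak. Of the genes in 11 lists written for embryos and for Usf, 118 were beside such a gap and 26 flanked a peak. Segmentation and axis genes were the most numerous of these, with 9 of 29 (31.0%, 17.3 to 49.2). They were hry, odd, slp1, slp2, wg, hh, croc, oc and ems. Signalling ligands and antagonists had 7 of 15 (46.7%, 24.8 to 69.9). They were wg, Wnt4, hh, the EGF receptor ligand vn, the JAK/STAT ligands upd1 and upd3, and the Notch ligand Ser. These genes lie beside more open sequence than most, a median of 22.6 and 23.9 kb of eligible sequence per gene where all 3648 had 7.39. Among genes with more than 20 kb, 167 of 864 coding genes (19.3%, 16.8 to 22.1) flanked a peak, and so did 7 of 16 segmentation genes and 6 of 11 signalling genes. Genes that share a gap, such as slp1 and slp2, wg and Wnt4, or upd1 and upd3, share their peaks. Since wg and hh are in both lists, the results of the lists are not independent.

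Beside the slp1 and slp2 peak of 367.5 described above, those at the patterning and signalling genes were of lower signal. The pair-rule repressor gene hry (hairy) had 2, at 134.8 (85.7 in replicate 3, 51.4 in replicate 4) and 99.0 (64.7 and 29.8), both downstream. The head gap gene oc (orthodenticle) had one of 138.6 lying 6067 bp upstream (71.3 and 69.0) and another of 100.4. For ems, another head gap gene, the pair had 123.3 and 105.2, and for the forkhead gene croc 136.4 and 121.4. The hedgehog gene hh had 1 of 80.5 (38.8 and 43.2) at 7289 bp upstream, and odd 1 of 93.7 (52.3 and 30.5) at 12588 bp downstream. Beside vn there was 1 of 79.0, beside Ser there were 85.1 and 73.9, and the upd1 and upd3 pair shared 1 of 89.9. All of these but the slp1 and slp2 peak lay below 180.4, the upper quartile over the whole IDR set.

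The other lists had fewer. The Hox list had 1 of 8, abd-A, with peaks of 165.3 (110.4 and 57.7) and 91.9 downstream. Neural fate genes had 2 of 14, Dr with 3 peaks and SoxN with 1, and mesoderm genes 2 of 15, bin and zfh1. Chromatin factors had 2 of 7, which were Psc with 4 peaks and Su(z)2 with 2, and adhesion and axon guidance genes 4 of 21, namely fz, robo2, Toll-6 and 18w. The axon guidance receptor gene robo2 had peaks of 187.5 (102.0 and 84.4 in replicates 3 and 4) and 134.9 (72.6 and 57.3). Toll-6, a Toll family receptor gene, had 162.7 (78.7 and 85.5), and 2 more at 84.9 and 81.4 that were matched in replicate 3 only. Of the E-box factor genes, 1 of 2 flanked a peak: Myc, whose protein binds CACGTG as a dimer with Max, had 3 peaks in the long stretch toward dnc. Their signals were 161.8, 133.4 and 123.0, with 65.9, 42.5 and 67.5 in replicate 3 and 96.4, 90.6 and 52.7 in replicate 4. None of the 4 eligible genes of the vacuolar proton pump, the 5 of the clock or the 2 of housekeeping metabolism flanked one.

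Summits were poorer in G and C than the sequence beside them. The median GC content of the 101 bp at the summit was 32.7%, against 42.6% for windows 500 bp to each side, and the summit had the lower value in 222 of 284 peaks (78.2%), as it had in 80.4% of all IDR peaks. The median difference was -9.90 points here, -9.41 for distal peaks inside genes and -11.9 for peaks near a TSS. The hexamer TTAAAA or its complement was in the 201 bp around the summit of 148 peaks (52.1%), where 52.8% of all IDR peaks and 30.6% of the flanking windows had it. No summit lay in an annotated transposable element, which with 284 peaks allows a share of up to 1.06% by the limit of 3 counts and 1.33% by the Wilson interval, and 0.253% of all IDR peaks did.

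The E-box that vertebrate Usf proteins bind was rare. The 201 bp around the summit held CACGTG in 4 of 284 peaks (1.41%, 0.55 to 3.56), where 2.46% of all IDR peaks, 2.29% of the flanking windows and 2.21% of 201 bp windows over all eligible intergenic sequence had it. The share was 1.14% in distal peaks inside genes and 3.14% near a TSS. The strongest of the 4, with a signal of 153.7 (88.8 in replicate 3, 64.0 in replicate 4), lay on 2R 5312 bp upstream of ptc, the Hedgehog receptor. The peak by RpLP0, which encodes the ribosomal stalk protein P0, had 117.4 (71.9 and 49.1), and a second copy reached past the window. That beside tsh, the trunk identity gene teashirt, had 109.4 (60.3 and 47.1), and the one downstream of hry had 99.0 (64.7 and 29.8). At the hry summit the GC content was 58.4% against 30.7% beside it, so it too differed from the usual order.

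Another hexamer was commoner at the intergenic peaks than in the rest of the IDR set. CAGTGC, read on both strands, was in the same 201 bp of 70 of 284 peaks (24.6%, 20 to 30), and in 15.8% of all IDR peaks. It was found in 16.5% of distal peaks inside genes and in 14.0% of peaks near a TSS. The difference from all other IDR peaks was 9.91 percentage points (5.04 to 15.4), and that from distal peaks inside genes 8.10 (2.60 to 14.0), by Newcombe intervals. The hexamer was taken up because earlier results had ranked it among all hexamers at the summits of the whole IDR set, these 284 included, so the intervals describe a word chosen on these peaks and are adjusted neither for that ranking nor for the 15 motifs searched. The hexamer lay in 7.22% of the flanking windows and in 8.42% of windows over all eligible intergenic sequence. Within the set, the share was 25.4% in the stronger and 23.9% in the weaker 142 peaks, and 25.5% on 3L and 24.2% elsewhere. The median signal was 116.4 with the hexamer (n = 70, interval of the median 89.1 to 133.4) and 110.0 without it (n = 214, 100 to 117.9), and these intervals overlap. With the strongest peak of each gap alone, 56 of 212 (26.4%) had it.

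The copies were more frequent around the summit than farther out. Measured to the middle of the hexamer, the nearest copy was at a median of 51.5 bp, with 34 of the 70 within 50 bp and 9 within 20 bp. Only copies within 100 bp of the summit were counted, and these distances are near those of evenly placed copies. They show no centring on the summit. In 50 bp bins, the 2 next to the summit had 6.34% each and that from 50 to 100 bp 9.15%. In all there were 80 copies, and 9 peaks had more than 1. Reading each copy as GCACTG, as in the lines above, T came just before it in 58 of 80 (72.5%) and in 16 of the 41 copies of the flanking windows (39.0%). Bases 11 and 12, counted from its G as 1, were A in 72.5% and 67.5%, and in 41.5% and 31.7% of the flanking copies. These bases were picked as the commonest among the copies at the peaks, and the positions were picked from those to each side. Summits were also richer in A and T than the flanks, which was not adjusted for. Among the peaks with it were one of the 3 upstream of Myc, 3 of the 6 in the NijA gap, the strongest beside oc with 2 copies, and those beside fz and between CG43131 and RabGGTa. Of the 20 strongest peaks, 4 had it.

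**Figure D5:**
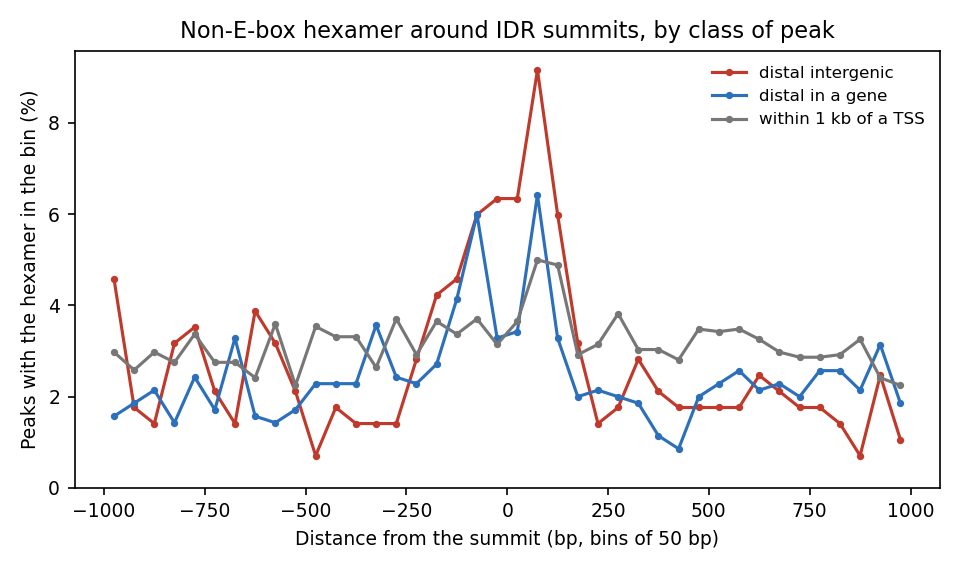
Percent of peaks (y) with CAGTGC or its complement in each 50 bp bin, by distance from the summit (x), for intergenic peaks (red, n = 284), distal peaks inside genes (blue, n = 701) and peaks within 1 kb of a TSS (grey, n = 1782). The red line reaches 9.15% in the bin from 50 to 100 bp, where the others are at 6.42% and 4.99%. It is at 1.41% from 200 to 250 bp and at 2.82% from -250 to -200 bp. Farther out it varies and reaches 4.58%, from -1000 to -950 bp.

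CGATAG and CAGCTG were scarcer at the intergenic peaks than near a TSS. CGATAG, bound by the insulator protein BEAF-32, lay in 11 peaks (3.87%), in 2.85% of distal peaks inside genes and in 11.3% near a TSS, with 8.38% over all IDR peaks. The difference from TSS peaks was -7.41 points (-9.71 to -4.17). The share at the intergenic peaks was near that of their surroundings. CGATAG was in 3.70% of the flanking windows and 3.88% of windows over all eligible intergenic sequence. The E-box CAGCTG was in 3.87%, against 9.76% near a TSS (a difference of -5.89 points, -8.13 to -2.69) and 8.10% of all IDR peaks. Distal peaks inside genes had it in 5.56%, a difference of -1.69 points whose interval (-4.28 to 1.58) includes 0. It was in 7.57% of the flanking windows and 6.88% of windows over all eligible intergenic sequence. ACAGTG, which overlaps CAGTGC by 5 bases where the run is ACAGTGC, was in 15.8% here and in 19.2% of all IDR peaks. Distal peaks inside genes had it in 22.7%, a difference of -6.84 points (-11.8 to -1.29). The difference from all other IDR peaks was -3.77 points, with an interval (-7.88 to 1.17) that includes 0. It was less common beside the peaks, in 6.51% of the flanking windows and 7.04% of windows over all eligible intergenic sequence. GAGAGA, bound by GAGA factor, was in 11.6% with 10.2% over all. GCCAT, the core of the Polycomb recruiter Pho, was in 29.9%, where all IDR peaks had 25.0%. The difference from all other IDR peaks was 5.48 points (0.17 to 11.3). The flanking windows had more, 32.7%, as had windows over all eligible intergenic sequence, 35.5%. CAGGTA, bound by the early activator Zelda, was in 5.28% with 4.59% over all. The intervals of the GAGAGA and CAGGTA differences from all other IDR peaks include 0.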

How the data were processed

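The files are peak lists in narrowPeak layout made by the authors on dm6: relaxed lists for replicate 3 (28459 peaks), replicate 4 (29246) and the pooled reads (21315), and the optimal IDR list (2767). Each deposited peak has a signal value and a summit offset. The sources used here do not name an aligner, a peak caller, an IDR threshold or a depth, so the deposited signal served for ranks and descriptions inside each list, and values from the 3 relaxed lists are given side by side without comparing their heights. Peaks were joined to the Release 6 sequence from RefSeq and to Ensembl 115 (FlyBase 6.54), leaving 18277 genes without transposable elements, with Python 3.11.15, numpy 2.4.6 and scipy 1.17.1. Gaps are stretches free of any such gene. Motifs were searched in 201 bp, GC content in 101 bp.

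The peaks, motifs and gene lists were chosen with earlier results of these data known. The rule named the 20 strongest peaks with coding neighbours, those with CACGTG, the 3 farthest, the 3 strongest unmatched, gaps with 3 or more, the 5 on each side of the limit, and neighbours in the lists. The values of 1 gap are not reported here. Of the list symbols, 212 matched a gene, 4 of them through older names or other capitals, and 3 matched none. Intervals are 95% Wilson, Newcombe or Poisson and cover counting error over peaks only, which are not replicates of embryos. No test across samples was possible with 1 group. The code was tested on simulated peaks. Results for peaks on dm3 were not used here.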

Additional observations from a re-analysis of the deposited data

How the results depend on the processing

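Of 87 alternative values, 65 stayed within the main interval or within 1.5 times the count, 22 moved and 0 changed sign. With the TSS limit at 500 bp the median TSS distance was 2734 bp and 11.2% of eligible coding genes flanked a peak, and at 2 kb these were 4537 bp and 7.35%. With coding genes alone they were 4964 bp and 10.9%. The stronger 1383 IDR peaks held 123 intergenic ones, with a median signal of 154.2 and 4.39% of genes flanking, as a shorter list must. The strongest 5534 pooled peaks held 709, with 82.4% matched in both replicates, a median signal of 63.6, a GC difference of -7.92 and 19.4% of genes flanking. Matching within 50 bp gave 79.9%, within 250 bp 100% and by overlap of at least 50% of each peak 82.7%. With the whole hexamer within 50 bp of the summit, 0.352% had CACGTG and 11.6% CAGTGC, and within 200 bp 35.6% had CAGTGC. GC content within 100 bp gave -7.46 points. Counting every coding gene beside a gap that could hold a peak gave 5.94%, an alternative added after the data were seen, as were CAGTGC and the strongest peak of each gap. Lists of the first 2767 peaks of each replicate alone gave 273 to 293 intergenic peaks, and 20.1% to 24.2% of them had CAGTGC. The signal was not compared there, since whether the lists share a scale is not stated. No paired analysis was possible because both samples belong to 1 group. Depth is unknown, no control library was analysed here, and annotation decides which peaks count as intergenic.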

Other observations

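Longer words around the CAGTGC hexamer were counted after its values were seen. They were chosen on these same peaks, so their shares are descriptions, and no difference between classes was tested. CACTGAGA, which overlaps the end of GCACTG, was in the 201 bp around the summit of 24 of 284 intergenic peaks (8.45%), in 4.71% of distal peaks inside genes and in 2.08% of peaks near a TSS. It lay in 0.528% of the windows beside the intergenic peaks and in 0.677% of windows over all eligible intergenic sequence. GCACTGA lay in 33 of the 284 (11.6%), in 5.85% of distal peaks inside genes and in 4.55% near a TSS.

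Repeat-masked letters made up most of the summit window in 10 of the 284 (3.52%), and in 4.01% of all IDR peaks.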
